A study of Homo sapiens with 6 samples.

Results

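The genes described here are 43 interferon-stimulated antiviral effectors, a list chosen by gene function with earlier results of these data known. The RNA-seq libraries are of A549, a line of human lung adenocarcinoma cells that the labels class as non-small-cell lung cancer. Members were found by symbol, and 43 of 43 were listed in all 6 libraries, among 17789 symbols listed in any library. The FOXD3 knockdown group (3 libraries) received a pool of small interfering RNAs against FOXD3, a forkhead transcription factor, with a lipid reagent. The control group (3 libraries) is labelled wild type, and the labels do not state what its wells received. Both groups share the cell line and a medium with serum, no interferon or virus is named for either, and knockdown was examined by the submitters 72 h after transfection. The labels do not tie the replicates to separate cultures, so a p-value here reflects the spread among these libraries, which could be technical. FOXD3 itself was at 0, 0.0749 and 0 FPKM in knockdown replicates 1, 2 and 3, against 0.152, 0.291 and 0.134 FPKM in the control replicates (exact permutation test, two-sided, p = 0.1, the lowest possible with 3 and 3 libraries). By a rough estimate of depth, 1 fragment on a transcript of 2 kb is worth 0.0658 to 0.0758 FPKM, so the FOXD3 values rest on few fragments. FOXD3 was also below the mean of 0.5 FPKM required for the test used below. Knockdown libraries listed 15651 to 15754 symbols and control libraries 16229 to 16288.

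Interferons are secreted proteins that warn cells of virus infection. Type I interferons (IFN-alpha and IFN-beta) and type III interferons (IFN-lambda) bind receptors on epithelial cells, the kinases JAK1 and TYK2 then phosphorylate STAT proteins, and a complex that holds STAT2 and IRF9 binds the interferon-stimulated response element (ISRE) in promoters. Interferon-gamma signals through JAK1 and JAK2 to factors that bind the gamma-activated site (GAS). Many of the genes so induced are also transcribed at a basal level in cells that have met no virus.

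The ISRE core, GAAANNGAAA or its reverse complement TTTCNNTTTC, was looked for on both strands in RefSeq promoters of build GRCh38.p14, each from 250 bases before to 50 bases after a start. The table held promoters for 34 of the 43 members; IFIT2, IFITM2, OAS2, OASL, USP18, DHX58, MX2, GBP2 and TRIM22 were not matched. The core was present for 25 of the 34 members (73.5%), and at 30 of their 45 starts (66.7%), against 4.38% of all genes in the table and 3.57% of its 35116 promoters. The stretches below show it in members with large falls, in the abundant members ISG15, IFITM3 and BST2, in DTX3L, whose stretch is shared with a neighbour and whose fall was small, and in EIF2AK2 and SAMD9, which had no called change. The ISRE core is in capitals, and each stretch reads 5′ to 3′ on the strand of its gene.
IFITM1 (chr11:314019-314058, plus strand): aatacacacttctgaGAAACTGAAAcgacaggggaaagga
GBP1 (chr1:89065311-89065350, minus strand): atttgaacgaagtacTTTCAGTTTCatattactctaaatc
PARP14 (chr3:122680795-122680834, plus strand): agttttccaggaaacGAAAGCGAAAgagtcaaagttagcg
HERC5 (chr4:88457030-88457069, plus strand): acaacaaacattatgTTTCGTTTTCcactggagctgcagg
IFIT1 (chr10:89392492-89392544, plus strand): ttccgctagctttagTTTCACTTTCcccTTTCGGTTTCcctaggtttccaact
ISG15 (chr1:1013369-1013414, plus strand): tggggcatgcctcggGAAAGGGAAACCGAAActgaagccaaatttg
IFITM3 (chr11:320871-320927, minus strand): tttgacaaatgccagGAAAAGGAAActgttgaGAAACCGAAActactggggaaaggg
BST2 (chr19:17405730-17405775, minus strand): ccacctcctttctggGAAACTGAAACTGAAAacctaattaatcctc
DTX3L (chr3:122564317-122564356, plus strand): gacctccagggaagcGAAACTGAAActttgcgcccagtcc
EIF2AK2 (chr2:37156962-37157001, minus strand): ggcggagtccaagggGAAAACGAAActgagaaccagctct
SAMD9 (chr7:93118091-93118130, minus strand): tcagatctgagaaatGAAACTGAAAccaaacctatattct

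The stretch of DTX3L also lies in the promoter of its divergent neighbour PARP9, on the opposite strand. In ISG15 and BST2, 2 cores overlap. Members with the core in a promoter had a median log2 change of -0.69 (25 tested, -1.65 to 0.01) and matched members without it -0.60 (8 tested, -1.47 to -0.26). The matched members without the core were OAS1, HERC6, UBE2L6, DDX58, SAMHD1, SAMD9L, IFI35, XAF1 and SP110. Large falls were thus also seen without it, as in UBE2L6 (-1.47) and OAS1 (-0.9981). The GAS core, TTCNNNGAA, was present for 9 of 34 members (26.5%), among them IFITM1, OAS1, MX1 and PARP14, against 9.38% of all genes in the table. In IFITM1, MX1, IFI27 and BST2 a GAS match shares letters with an ISRE core, so the counts for GAS and ISRE are not separate. The NF-kB consensus was present for 6 of 34 (17.6%), which were IFITM3, OAS3, IFIH1, DDX58, BST2 and XAF1, against 7.09% of all genes in the table. A match describes the letters in these windows, and a lack of one says nothing of the factor.

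Levels are in FPKM, fragment numbers corrected for the length of the transcript and the size of the library, and changes are the difference in mean log2(FPKM + 1), knockdown minus control, a scale on which the change of low genes is understated. The 43 members together held 0.154% to 0.169% of the FPKM total in the knockdown libraries and 0.256% to 0.291% in the control libraries. Their summed level was 1010, 945 and 986 FPKM in knockdown replicates 1, 2 and 3, against 1802, 1547 and 1716 FPKM in control replicates 1, 2 and 3. The groups did not overlap in that sum, with or without the 3 most abundant members. The knockdown mean was 52.2% of the control mean at the median over members, and 92.8% at the median over all genes tested. In bulk libraries, fewer cells that express a gene and less RNA per cell cannot be told apart.

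Of the 43 members, 42 had the mean of 0.5 FPKM over the 6 libraries that the test required. In limma's test with Benjamini-Hochberg adjustment over all 13340 genes tested, 39 of the 42 were lower at an adjusted p under 0.05, where 37.9% of all genes tested were lower and 63.5% changed in either direction. None was higher (0 of 42, also at an unadjusted p under 0.05), where 25.6% of all genes were higher. RSAD2 and TRIM22 met the level required only through the control libraries; without these 2, 37 of 40 were lower. The knockdown libraries all lay below the control libraries in 39 of the 43 members, against 40.8% of all genes tested, and above them in 0, against 28.3%. By size, 13 members were lower by at least 1 on the log2 scale, where 5.84% of all genes tested were, 16 were lower by 0.5 to 1, and 13 changed by less. The median log2 change of the tested members was -0.71, beside -0.09 for all genes tested. EIF2AK2, SAMD9 and USP18 were the 3 tested members without a call, and XAF1 was not tested. Because the list was chosen with earlier results of these data known, these counts are not independent of the data.

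**Figure D1:**
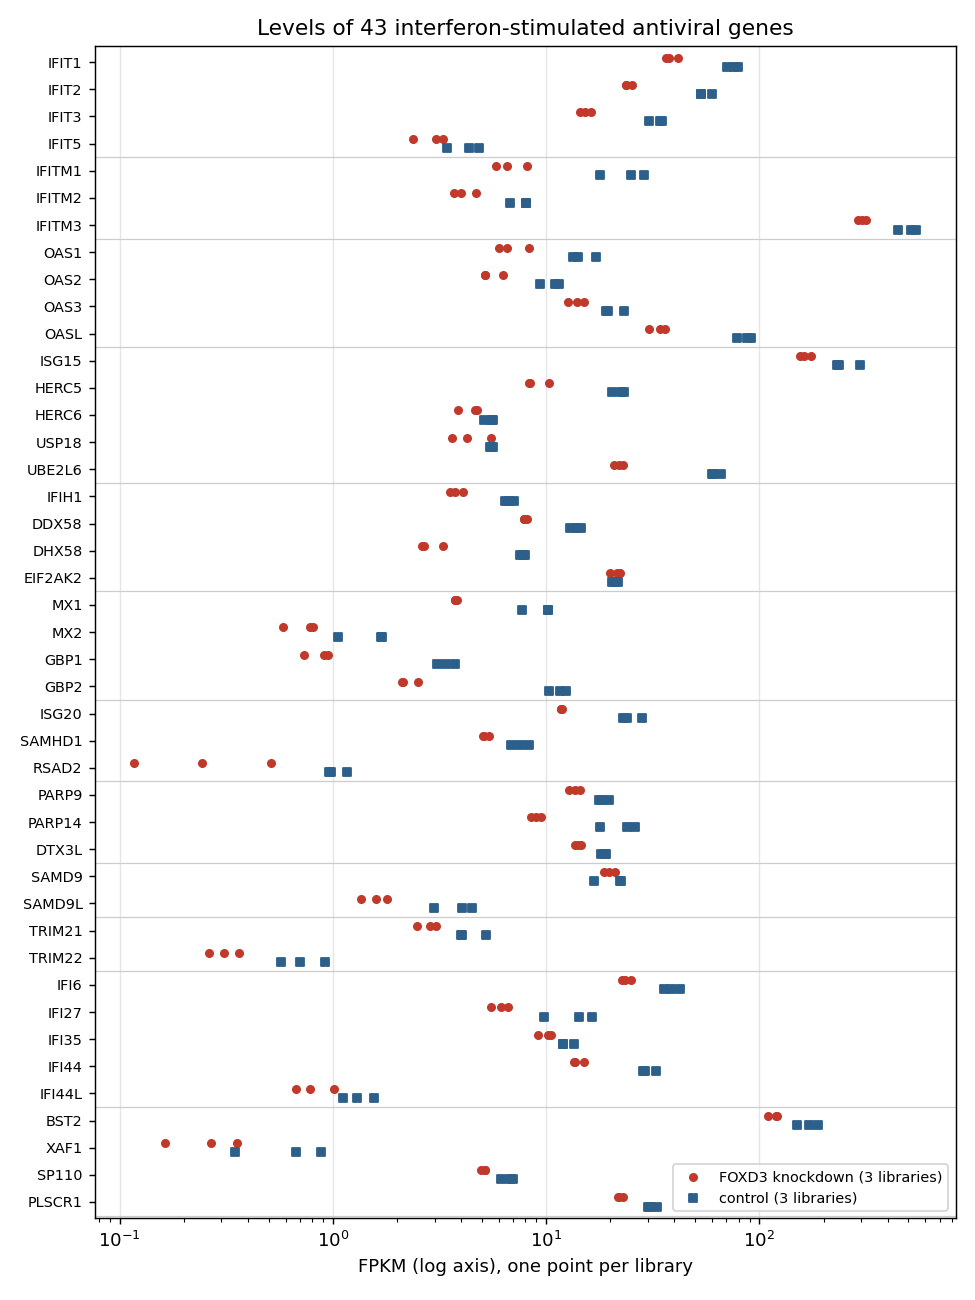
FPKM of each member on a log axis, with 1 point per library, circles for FOXD3 knockdown and squares for control; grey lines separate the role groups. The circles lie left of the squares in 39 of 43 genes, and EIF2AK2, SAMD9, USP18 and XAF1 overlap.

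IFIT proteins bind viral RNA, and all 4 genes were lower (beside 37.9% of all genes tested). IFIT1, which recognises RNA without the host's cap methylation, had 41.4, 36.6 and 37.9 FPKM in the knockdown libraries, against 79.5, 70.8 and 75.8 FPKM in the control libraries. The IFIT1 groups lay far apart for their spread (log2 change -0.95, SE 0.06; limma adjusted p = 8.07e-06). IFIT2 had 25.3, 23.7 and 23.7 FPKM in knockdown and 53.5, 53.2 and 59.96 FPKM in control libraries. IFIT3, which partners IFIT1, had 14.4, 15.3 and 16.3 FPKM in knockdown and 34.2, 30.3 and 35.1 FPKM in control libraries. IFIT2 and IFIT3 had log2 changes of -1.16 and -1.07, with no overlap between the groups. IFIT5 was lower by a smaller amount, at 2.91 ± 0.4699 FPKM in knockdown and 4.21 ± 0.709 FPKM in control libraries (SD, n = 3 each), a log2 change of -0.41. Its limma adjusted p of 0.0246 did not hold without control replicate 2 or 3, or without knockdown replicate 2 (adjusted p 0.00832 to 0.297 over all settings).

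IFITM proteins sit in the plasma and endosomal membranes and hinder the fusion of enveloped viruses. IFITM3 was the most abundant member, with 315, 291 and 302 FPKM in knockdown libraries, against 545, 449 and 515 FPKM in control libraries. IFITM1 had 6.58, 5.84 and 8.12 FPKM in knockdown libraries, against 24.9, 17.9 and 28.8 FPKM in control libraries. The highest knockdown value of IFITM1 was under its lowest control value, with a log2 change of -1.65 (SE 0.17, limma adjusted p = 6.99e-05). On the log2(FPKM + 1) scale, the change of IFITM1 was exceeded among tested members only by that of GBP2. As a percent of control, the low genes GBP1, at 25.4%, and RSAD2, at 28.2%, also stood below IFITM1, at 28.7%. IFITM2 had a mean of 54.1% and IFITM3 of 60.2% of control. The 3 IFITM neighbours are close paralogs, so the division of reads among them is uncertain.

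Oligoadenylate synthetases make the second messenger that activates RNase L on double-stranded RNA. OASL, a family member without that activity, had 36.1, 30.5 and 34.4 FPKM in knockdown libraries, against 87.6, 78.97 and 91.9 FPKM in control libraries. OASL showed the largest change of the 4 (log2 change -1.33, SE 0.08; limma adjusted p = 4.34e-06). OAS1 was 6.98 ± 1.23 FPKM in knockdown and 14.9 ± 2.01 FPKM in control libraries (SD, n = 3 each). OAS2 was 5.55 ± 0.635 FPKM in knockdown and 10.6 ± 1.09 FPKM in control libraries. OAS3, the large isoenzyme, was 13.9 ± 1.16 FPKM in knockdown and 20.7 ± 2.29 FPKM in control libraries, a log2 change of -0.54. All 4 were lower, with no overlap between the groups. Of all genes tested, 37.9% were lower and 40.8% had the knockdown below the control without overlap.

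ISG15 is a ubiquitin-like protein that is conjugated to other proteins by the carrier enzyme UBE2L6 and the ligase HERC5, and is removed by USP18. ISG15 had 175, 161 and 155 FPKM in knockdown libraries, against 296, 231 and 236 FPKM in control libraries. UBE2L6 had 20.9, 21.9 and 22.8 FPKM in knockdown libraries, against 60.3, 60.2 and 66.3 FPKM in control libraries. HERC5 had 10.4, 8.33 and 8.41 FPKM in knockdown libraries, against 23.3, 20.4 and 22.6 FPKM in control libraries. The modifier stood at 64.4% of control, the carrier enzyme at 35.1% and the ligase at 40.9%. For UBE2L6 the log2 change was -1.47 (SE 0.06; limma adjusted p = 1.02e-06). USP18, which also restrains the type I receptor, had 4.26, 5.51 and 3.61 FPKM in knockdown libraries and 5.45, 5.54 and 5.63 FPKM in control libraries. Replicate 2 of the knockdown lay among the control values of USP18, and its log2 change of -0.27 (95% interval -0.56 to 0.01; limma adjusted p = 0.0824) did not pass; without that library it passed, at 0.00944 (adjusted p 0.00944 to 0.644 over all settings). HERC6, a relative of HERC5, stood at 80.7% of control, with a limma adjusted p of 0.0351 that was lost without control replicate 1 or 2 or knockdown replicate 2 or 3 (adjusted p 0.0283 to 0.617 over all settings).

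RIG-I-like receptors detect viral RNA in the cytosol. DDX58, which encodes RIG-I, was 7.94 ± 0.146 FPKM in knockdown and 13.9 ± 0.775 FPKM in control libraries (SD, n = 3 each). IFIH1, which encodes MDA5, was 3.79 ± 0.2701 FPKM in knockdown and 6.74 ± 0.335 FPKM in control libraries. DHX58, which encodes their regulator LGP2, had 2.68, 2.61 and 3.303 FPKM in knockdown libraries, against 7.78, 7.92 and 7.53 FPKM in control libraries. DHX58 stood at 37.01% of control, DDX58 at 57.3% and IFIH1 at 56.2%. EIF2AK2 encodes PKR, a kinase that stops translation on double-stranded RNA. EIF2AK2 had 21.5, 20.04 and 22.1 FPKM in knockdown libraries and 21.1, 20.5 and 21.9 FPKM in control libraries. Its groups overlapped, with a log2 change of 0.01 (95% interval -0.13 to 0.14; limma adjusted p = 0.942), and the stretch with its ISRE core shown above spans its start.

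MX and GBP proteins are large GTPases; MX1 blocks influenza viruses, and GBP1 and GBP2 attack pathogen-containing vacuoles after interferon-gamma. MX1 had 3.73, 3.75 and 3.81 FPKM in knockdown libraries, against 10.3, 7.72 and 10.2 FPKM in control libraries. GBP2 had 2.51, 2.14 and 2.104 FPKM in knockdown libraries, against 12.4, 10.3 and 11.7 FPKM in control libraries. GBP2 had the largest change of the 42 tested members, at 19.6% of control and a log2 change of -1.94 (SE 0.09; limma adjusted p = 2.01e-06). GBP1 was 0.865 ± 0.119 FPKM in knockdown and 3.4 ± 0.32 FPKM in control libraries (SD, n = 3 each). MX2, which acts on HIV, was low in both groups, at 0.725 ± 0.123 FPKM in knockdown and 1.48 ± 0.369 FPKM in control libraries. Its limma adjusted p of 0.0115 became 0.24 after quantile normalization (adjusted p 0.00338 to 0.24 over all settings).

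Among enzymes that act on nucleic acids or nucleotides, the exonuclease ISG20 had 11.8, 11.7 and 11.7 FPKM in knockdown libraries, against 28.3, 22.9 and 23.98 FPKM in control libraries. SAMHD1, which depletes deoxynucleotides, was 5.202 ± 0.184 FPKM in knockdown and 7.54 ± 0.727 FPKM in control libraries (SD, n = 3 each). RSAD2 encodes viperin, which makes a chain-terminating nucleotide. RSAD2 had 0.117, 0.244 and 0.514 FPKM in knockdown libraries, against 0.956, 0.978 and 1.17 FPKM in control libraries. All 3 genes were lower without overlap, where 37.9% of all genes tested were lower and 40.8% lay below without overlap. By the estimate of depth, a single fragment on a transcript of 2 kb is worth 0.0658 to 0.0758 FPKM, so the knockdown values of RSAD2 rest on few fragments.

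PARP9 and DTX3L form a complex that acts in the interferon response, and PARP14 is a mono-ADP-ribosyltransferase beside them on chromosome 3. PARP14 had 8.95, 8.46 and 9.48 FPKM in knockdown libraries, against 17.8, 23.95 and 26.1 FPKM in control libraries. PARP9 was 13.6 ± 0.758 FPKM in knockdown and 18.6 ± 1.14 FPKM in control libraries (SD, n = 3 each). DTX3L was 14.1 ± 0.419 FPKM in knockdown and 18.7 ± 0.532 FPKM in control libraries. The divergent pair thus stood at 73.6% and 75.4% of control and PARP14 at 39.6%. The loci of PARP9 and DTX3L overlap at their starts, and with no strand setting given their reads cannot be fully separated. SAMD9 and SAMD9L encode paired restriction factors for poxviruses. SAMD9 had 19.8, 18.7 and 21.2 FPKM in knockdown libraries and 16.8, 22.5 and 22.2 FPKM in control libraries. SAMD9L had 1.801, 1.36 and 1.59 FPKM in knockdown libraries, against 2.97, 4.48 and 4.05 FPKM in control libraries. SAMD9L was lower (log2 change -0.90, SE 0.14; limma adjusted p = 0.000612), whereas the SAMD9 groups overlapped (log2 change -0.03, 95% interval -0.28 to 0.22; limma adjusted p = 0.821).

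The remaining members had log2 changes of -1.05 to -0.30 where they were tested, and all of these were lower (beside 37.9% of all genes tested). IFI44 had 13.6, 13.5 and 15.1 FPKM in knockdown libraries, against 29.2, 28.5 and 32.8 FPKM in control libraries. IFI27, widely used as a blood marker of virus infection, was 6.12 ± 0.562 FPKM in knockdown and 13.5 ± 3.35 FPKM in control libraries (SD, n = 3 each). BST2, the tetherin that holds budding virions at the cell surface, had 120, 110 and 121 FPKM in knockdown libraries, against 189, 150 and 172 FPKM in control libraries. The means of IFI6 stood at 60.8% of control, of PLSCR1, a phospholipid scramblase, at 71.3%, of SP110, a nuclear body protein, at 76.9% and of IFI35 at 79.6%. TRIM21, a ubiquitin ligase and cytosolic antibody receptor, was 2.801 ± 0.2897 FPKM in knockdown and 4.41 ± 0.696 FPKM in control libraries. TRIM22, a relative that restricts retroviruses, was 0.311 ± 0.0504 FPKM in knockdown and 0.731 ± 0.179 FPKM in control libraries. IFI44L was 0.8201 ± 0.176 FPKM in knockdown and 1.33 ± 0.224 FPKM in control libraries. The calls of TRIM22 and IFI44L depended on single libraries. TRIM22 (limma adjusted p = 0.0209) lost its call without knockdown replicate 1 or 3, with adjusted p 0.00607 to 0.559 over all settings. IFI44L (limma adjusted p = 0.0345) lost its call without control replicate 2 or 3 or knockdown replicate 1 or 2, with adjusted p 0.0183 to 0.78 over all settings. XAF1, a pro-apoptotic protein, had 0.355, 0.2697 and 0.163 FPKM in knockdown libraries and 0.348, 0.672 and 0.884 FPKM in control libraries, with overlapping groups and a mean below the level required for testing.

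**Figure D2:**
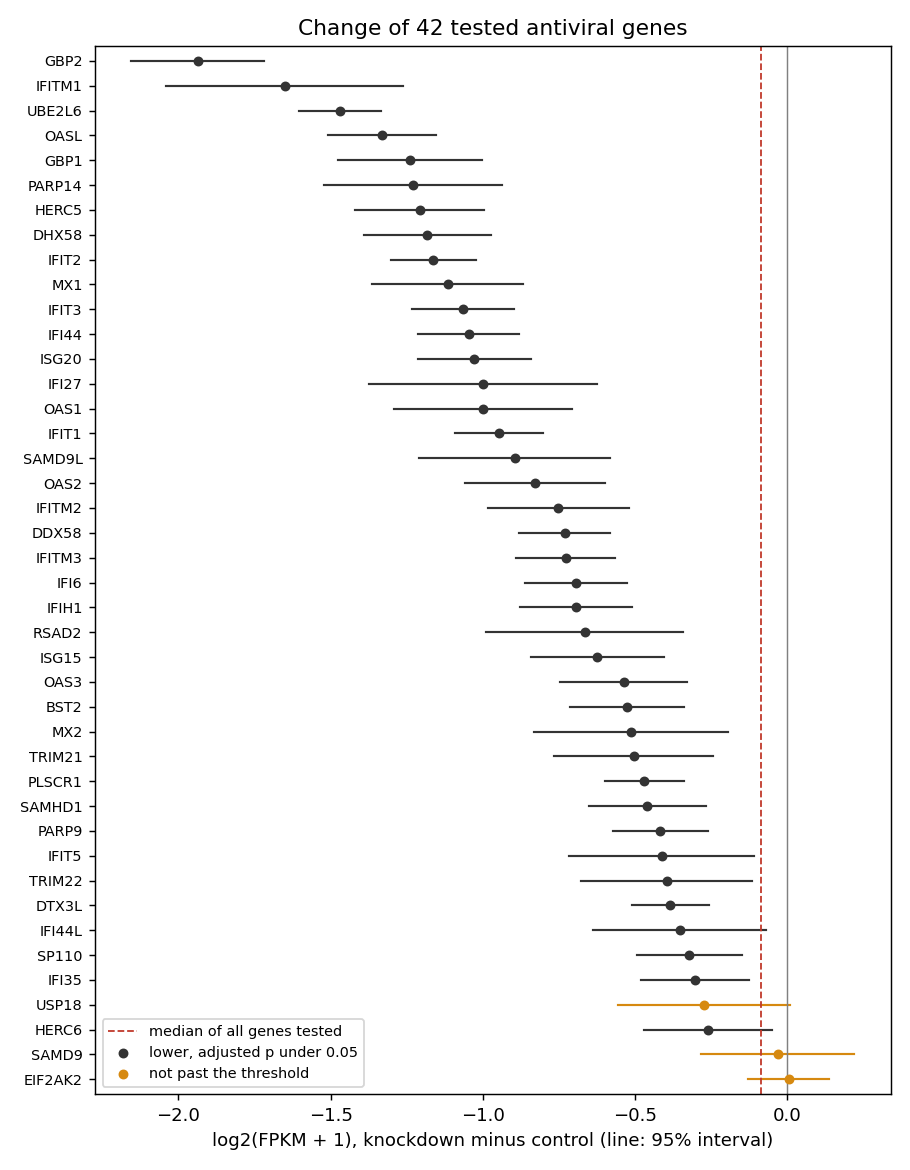
Change of the 42 tested members, ordered by size, in log2(FPKM + 1), knockdown minus control, with 95% intervals; the dashed line is the median of all genes tested. Changes run from -1.94 for GBP2 to 0.01 for EIF2AK2, and the 3 orange genes did not pass the threshold.

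Many members lie side by side in the genome as families, and the changes of neighbours ranged widely. Coordinates in this paragraph are of the build hg19. The 4 IFIT genes span 119.1 kb (chr10:91061706-91180759), where IFIT2, IFIT3 and IFIT1 had log2 changes of -1.16, -1.07 and -0.95 and IFIT5 at the end of the row -0.41. In the OAS cluster of 104.8 kb (chr12:113344739-113449528), the changes were -0.9981 for OAS1, -0.54 for OAS3 and -0.83 for OAS2. On chromosome 4 (chr4:89299891-89427314), HERC5 had -1.21 (95% interval -1.42 to -0.9965) and HERC6 -0.26 (95% interval -0.47 to -0.05). On chromosome 7 (chr7:92728826-92777680), SAMD9L had -0.90 (95% interval -1.21 to -0.58) and SAMD9 -0.03. On chromosome 1 (chr1:79086088-79129763), IFI44 had -1.05 and the lower-expressed IFI44L -0.35, and at the GBP locus (chr1:89517987-89591799) GBP2 had -1.94 and GBP1 -1.24. The scale compresses the changes of low genes such as IFI44L, MX2 and GBP1, and the differences between neighbours were not tested.

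**Figure D3:**
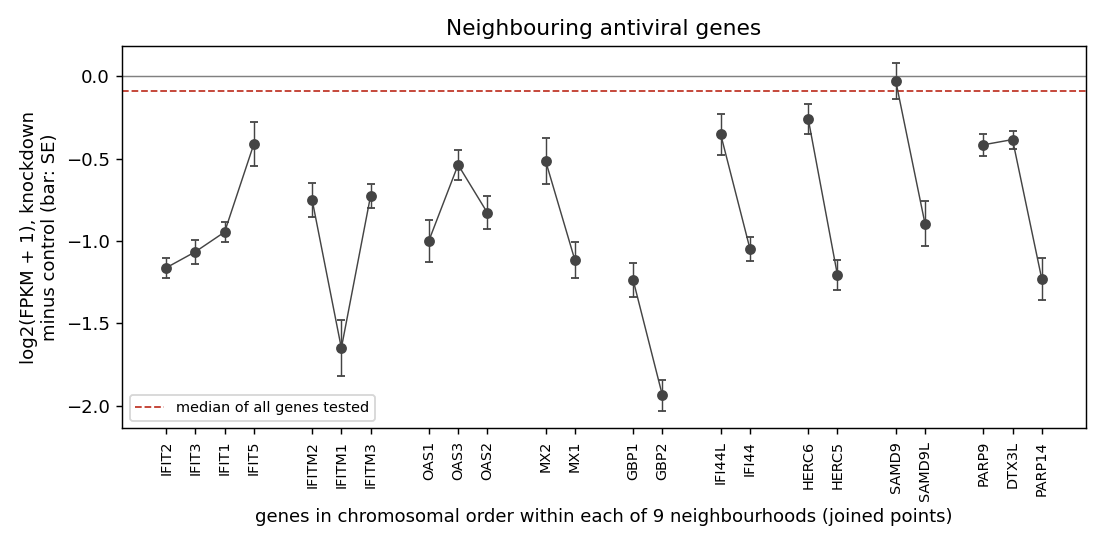
Change in log2(FPKM + 1), knockdown minus control, with SE bars, for members in chromosomal order within each of 9 neighbourhoods; joined points are neighbours. HERC5 (-1.21) lies below HERC6 (-0.26), SAMD9L (-0.90) below SAMD9 (-0.03), and IFIT5 (-0.41) above the other IFIT genes.

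The genes upstream of the effectors were read from lists of the pathway, also chosen with earlier results of these data known. Of 24 interferon symbols, which include both older and current names of 3 lambda genes, 8 were listed in a library and 5 reached the level for testing; 4 were lower (beside 37.9% of all genes tested) and 0 higher (beside 25.6%), also at an unadjusted p under 0.05 (limma). IFNB1, which encodes interferon beta, had 0.534, 1.101 and 0.537 FPKM in knockdown libraries, against 2.79, 3.07 and 2.46 FPKM in control libraries. IL29, the symbol in these tables for interferon lambda 1, had 5.59, 4.99 and 4.86 FPKM in knockdown libraries, against 14.1, 9.55 and 13.5 FPKM in control libraries. Both were lower without overlap, with log2 changes of -1.14 and -1.11 (limma adjusted p = 0.000233 and 0.000178). IL28A and IL28B are near-identical lambda genes whose reads cannot be told apart with certainty, and had means of 34.6% and 38.2% of control. The IL28B groups overlapped, and its call (limma adjusted p = 0.0169) was lost without control replicate 3 or knockdown replicate 1 or 2 (adjusted p 0.0023 to 0.0781 over all settings). No interferon alpha gene reached the level for testing, and IFNG was not listed in these libraries. IFNE, an epithelial interferon, did not pass (log2 change 0.23; limma adjusted p = 0.286).

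Of 9 tested receptor and kinase genes, 6 were lower (beside 37.9% of all genes tested) and 0 higher (beside 25.6%), also at an unadjusted p under 0.05 (limma), with a median log2 change of -0.38. IFNAR1, a chain of the type I receptor, had 7.72, 7.76 and 6.63 FPKM in knockdown libraries and 7.39, 7.38 and 6.76 FPKM in control libraries, with overlapping groups (log2 change 0.03, 95% interval -0.16 to 0.22). Its partner IFNAR2 was lower, at 6.26 ± 1.301 FPKM in knockdown and 9.24 ± 0.507 FPKM in control libraries (SD, n = 3 each). Both chains of the interferon-gamma receptor were lower, IFNGR1 at 40.8% and IFNGR2 at 41.1% of control, with log2 changes of -1.25 and -1.18 (limma adjusted p = 1.68e-05 and 1.08e-05). JAK1, the kinase shared by all interferon types, stood at 64.3% of control. TYK2 did not pass (log2 change -0.20; limma adjusted p = 0.108), though it did without control replicate 3 (adjusted p = 0.0217). JAK2 was at 68.1% of control, with a limma adjusted p of 0.0378 that was lost without control replicate 2 or 3 or knockdown replicate 1 or 2 (adjusted p 0.0213 to 0.869 over all settings).

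Of 10 tested STAT and IRF genes, 9 were lower (beside 37.9% of all genes tested) and 0 higher (beside 25.6%), also at an unadjusted p under 0.05 (limma), with a median log2 change of -0.61. STAT2 had 5.51, 5.99 and 6.09 FPKM in knockdown libraries, against 15.3, 15.7 and 14.5 FPKM in control libraries. IRF9 had 12.3, 9.56 and 10.96 FPKM in knockdown libraries, against 17.5, 17.02 and 17.6 FPKM in control libraries. In both genes the groups lay apart, with STAT2 at 38.7% of control and IRF9 at 63.03%. IRF1, a factor that induces many of the same genes, stood at 44.3% of control, IRF5 at 40.1% and IRF7, which amplifies type I interferon, at 60.9%. IRF3, which switches on interferon beta once phosphorylated, had 62.4, 60.4 and 62.4 FPKM in knockdown libraries and 61.5, 64.5 and 58.5 FPKM in control libraries. The IRF3 groups overlapped (log2 change 0.01, 95% interval -0.11 to 0.12; limma adjusted p = 0.916).

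**Figure D4:**
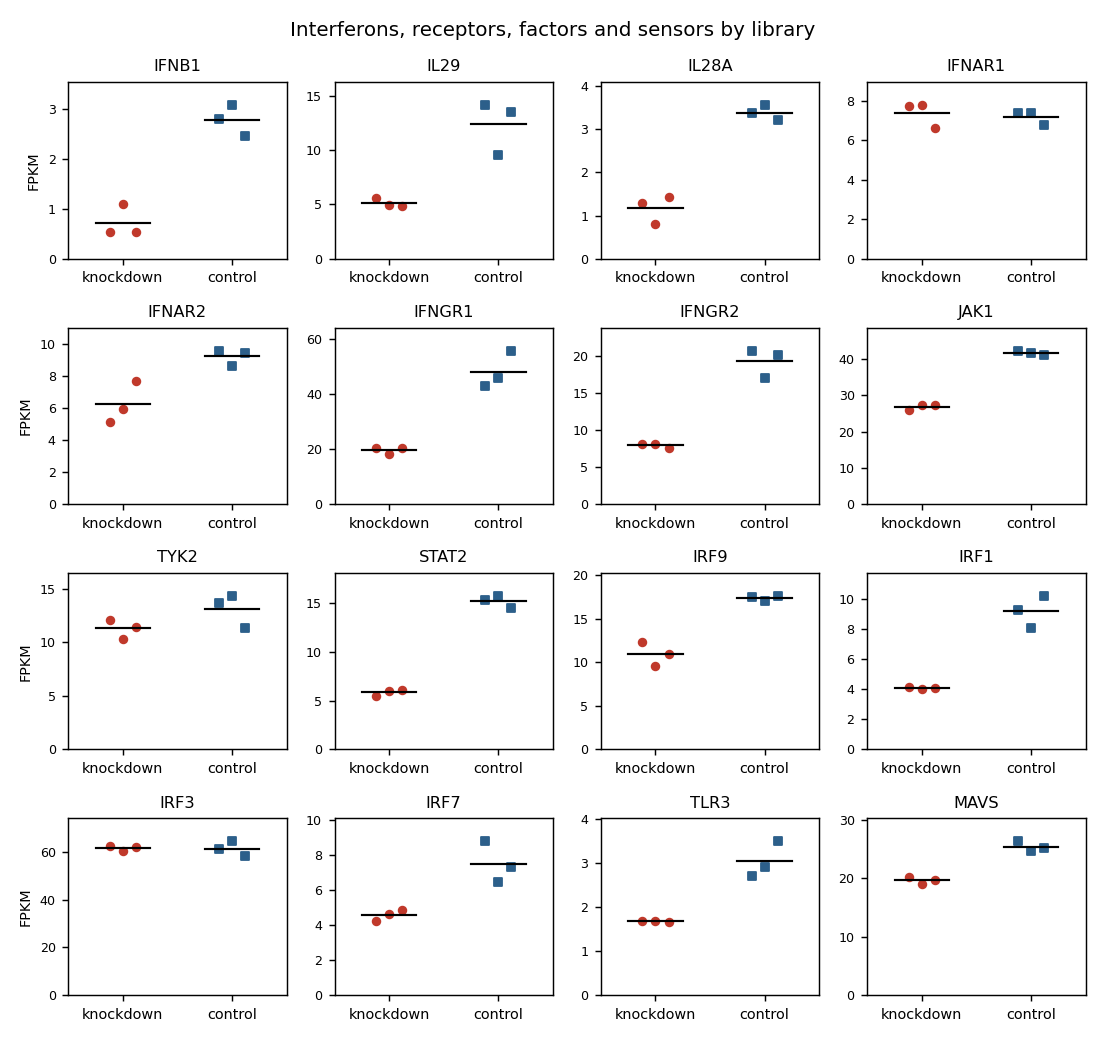
FPKM of 16 interferons, receptors, kinases, factors and sensors, with 1 point per library, FOXD3 knockdown at left and control at right, and bars at the means. Knockdown points lie below the control points in every panel but those of IFNAR1, TYK2 and IRF3, where the groups overlap.

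Of 11 tested sensors and adaptors, 7 were lower (beside 37.9% of all genes tested) and 1 higher (beside 25.6%), with a median log2 change of -0.55. At an unadjusted p under 0.05 (limma), 7 were lower and 2 higher, and the same count over all genes was not made. NOD2 reached the level for testing only through the control libraries; without it 6 of 10 were lower, with a median of -0.45. IKBKE, a kinase that activates IRF3, had the largest change of this list on the log2(FPKM + 1) scale, at 4.56 ± 0.404 FPKM in knockdown and 15.2 ± 0.128 FPKM in control libraries (SD, n = 3 each; log2 change -1.55). The kinase TBK1, also on this list, went the other way, at 123% of control, and did not pass (log2 change 0.30, limma adjusted p = 0.0513). TRAF3 stood at 96.2% of control and did not pass (limma adjusted p = 0.424). Both are named after their values were seen. The endosomal RNA receptor TLR3 stood at 55.1% of control, TMEM173, which encodes the adaptor STING, at 54.5% and MAVS, the adaptor of RIG-I, at 77.3%. NOD2, a sensor of bacterial wall peptides, was 0.113 ± 0.03503 FPKM in knockdown and 0.896 ± 0.229 FPKM in control libraries, which is 12.6% of control, against 30% for IKBKE. IFI16, a DNA sensor, was 1.99 ± 0.614 FPKM in knockdown and 4.68 ± 0.359 FPKM in control libraries. MYD88, the adaptor of most Toll-like receptors, was the gene called higher (log2 change 0.21; limma adjusted p = 0.016); it is named after its value was seen, and without knockdown replicate 1 or 2 the list held 0 higher genes. MB21D1, which encodes the DNA sensor cGAS, did not pass (log2 change 0.15; limma adjusted p = 0.157), though it did without control replicate 1 (adjusted p = 0.0354).

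Among 12 inhibitors of the pathway, 3 were lower and 1 higher, with a median log2 change of 0.04, where 37.9% of all genes tested were lower and 25.6% higher; neither share of this list was above that of all genes. SOCS2 stood at 41.9% of control, SOCS3 at 62.3% and the phosphatase PTPN6 at 71.3%, while TRIM27 stood at 118% of control and was summed over 7 loci. SOCS1, an inhibitor of JAK1 signalling, did not pass (log2 change 0.20, 95% interval -0.30 to 0.70; limma adjusted p = 0.45). Of 58 other interferon-stimulated genes, 50 were tested, and 39 were lower (beside 37.9% of all genes tested) and 3 higher (beside 25.6%), with a median log2 change of -0.47. BATF3 and GBP5 reached the level for testing only through the control libraries; without these 2, 37 of 48 were lower. On the log2(FPKM + 1) scale the 4 largest changes there were of TYMP, a thymidine phosphorylase, at 27.6% of control, CXCL10, a chemokine for T cells, at 24.5%, TRANK1 at 25.1% and LGALS9, which encodes galectin-9, at 23.6%. As a percent of control the low genes GBP5, at 11.3%, and CXCL11, at 23.3%, stood below these 4. The 3 that were higher, named after their values were seen, were IFI30, a lysosomal thiol reductase (log2 change 1.14), PNPT1, a mitochondrial RNA exonuclease (log2 change 0.95), and LAP3, an aminopeptidase (log2 change 0.50).

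The authors' deposited table, which gives 1 value per group and its own test, held 39 of the 43 members. Of these, 37 had a negative log2 fold change, knockdown over control, in the authors' deposited table. The share of all its genes with a negative value was not counted, so this count has no background beside it. At a false discovery rate under 0.05, 20 members were lower and 0 higher in the authors' deposited table, where 11.2% of its 12275 genes were lower and 10.9% higher. EIF2AK2 and SAMD9 had the 2 positive values in the authors' deposited table, 0.09 and 0.05. For GBP2 the authors' deposited table gave 1.64 FPKM for knockdown and 7.66 FPKM for control, a log2 fold change of -2.23 and a false discovery rate of 0.000722. Of the 3 most abundant members, IFITM3 passed by that rate (0.0321), and ISG15 (0.115) and BST2 (0.191) did not. Not all upstream genes called lower above passed in the authors' deposited table. Interferon lambda 1 (0.0232) and STAT2 (0.000722) did, and IFNB1 (0.0622), JAK1 (0.0686) and IRF9 (0.12) did not.

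Markers of other cells were read beside these results. Of 10 leukocyte markers, MS4A1, LILRA4 and CLEC4C were at 0 in all 6 libraries, and the pan-leukocyte gene PTPRC averaged 0.194 ± 0.04295 FPKM in knockdown and 0.227 ± 0.0713 FPKM in control libraries (SD, n = 3 each). The leukocyte list, most of it CD68, summed to 67.1 to 68.2 FPKM in knockdown and 72.3 to 82.7 FPKM in control libraries. CD14, a monocyte marker, was 1.25 ± 0.304 FPKM in knockdown and 2.92 ± 0.613 FPKM in control libraries. The 5 fibroblast markers summed to 2.96 to 3.56 FPKM in knockdown and 3.55 to 4.48 FPKM in control libraries, with DCN at 0 in all 6. The 3 endothelial markers, most of it CDH5, summed to 1.87 to 2.18 FPKM in knockdown and 2.56 to 3.38 FPKM in control libraries. The 6 epithelial markers, most of it KRT8 and KRT18, summed to 6893 to 6943 FPKM in knockdown and 4481 to 5185 FPKM in control libraries, so epithelial genes were abundant in both groups. Of the 6, CDH1 was lower, at 85.9% of control, and the other 5 were higher, from 127% for KRT18 to 309% for ALDH1A1. The part of these shifts in the members' changes was not tested.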

How the data were processed

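The authors deposited FPKM values for each library. Their deposited comparison table holds, per the file headers, log2 fold changes with p-values, false discovery rates and the FPKM of each group. The submitters' processing notes name TopHat2 2.0.12, Bowtie, Cufflinks 2.0.2, Cuffdiff and hg19, without role or order; annotation and strand setting: not given in the sources used here. FPKM was summed over the loci of a symbol, with unlisted symbols at 0. The test was limma 3.58.1 (R 4.3.3) on log2(FPKM + 1), moderated with a mean-variance trend, two-sided and without covariates, for genes whose mean over the 6 libraries reached 0.5 FPKM; calls used a Benjamini-Hochberg adjusted p under 0.05. The fit was tested on simulated data beforehand. The members and lists were chosen with earlier results of these data known. All 43 members are named; from the pathway lists, a set of signalling genes and up to 4 called genes of each list with the largest absolute change. Some genes of these lists are counted but not reported here by name. Replicate numbers follow accession order and pair nothing. The files hold no counts, so depth was estimated from the FPKM of a single fragment in 10 to 17 intronless genes per library, with a length limit and a window chosen after seeing values; medians ran from 7000000 to 7600000 fragments in knockdown and from 6590000 to 7220000 in control libraries, and the estimate is rough. Alternatives were other pseudocounts, filters, scalings and moderation, and each library left out. Protein sequences are not used here.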

Additional observations from a re-analysis of the deposited data

How the results depend on the processing

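Of the 39 members called lower, 31 stayed so in each of the 14 alternatives in which they were tested. The count of lower members was 37 without a filter, 30 of 33 tested at a filter of 5 FPKM, 35 with median scaling, 32 with quantile normalization and 36 to 37 with a library left out; the higher count was 0 throughout these. Median scaling ended the calls of HERC6, IFI35, IFI44L and IFIT5, and quantile normalization those of HERC6, IFI44L, IFIT5, MX2, SP110, TRIM21 and TRIM22. The median change of the tested members was -0.90 with a pseudocount of 0.1, -0.60 with median scaling and -0.63 with quantile normalization, while that of all genes tested was -0.09 as deposited, 0.02 with median scaling and 0.03 with quantile normalization. Of all calls, 40.4% were higher as deposited, 53.5% with median scaling and 52.4% with quantile normalization. The filter at 5 FPKM, which tests fewer genes, left 3295 lower calls over all genes, 1 lower interferon, and 4 lower and 2 higher sensors. Quantile normalization gave 1 higher interferon, 1 higher receptor gene and 2 higher sensors. Median scaling gave 1 higher STAT or IRF gene (IRF3), 3 higher sensors and 5 higher inhibitors, and robust moderation 2 higher sensors; the cause was not tested. With a library left out, higher sensors numbered 0 to 3 and higher inhibitors 1 to 2. Genes without a call changed sign. SAMD9 was 0.0954 with median scaling and 0.0041 with quantile normalization, and IRF3 was -0.0829 with quantile normalization. With a library left out, EIF2AK2 ran from -0.0248 to 0.044, SAMD9 from -0.1618 to 0.0395, IRF3 from -0.0286 to 0.0411, IFNAR1 from -0.0053 to 0.0974 and SOCS1 from -0.0338 to 0.3476. No paired analysis was possible because the labels carry no replicate number. Depth, known only by estimate, limits the members near or under 1 FPKM.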

Other observations

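The authors' tables annotate each gene with gene ontology terms, and 52 symbols carried the term for type I interferon signalling, 20 of them members. Among the other 32, which include HLA genes, 30 were tested, and 23 were lower and 0 higher, also at an unadjusted p under 0.05 (limma), with a median log2 change of -0.61, where 37.9% of all genes tested were lower and 25.6% higher. Of 90 symbols outside the members with the term for defense response to virus, 73 were tested, and 38 were lower and 13 higher, beside the same 37.9% and 25.6%; without 1 gene that reached the level for testing only through the control libraries, 37 of 72 were lower. Only the members were set aside, so genes of the pathway lists above can be counted again here. These terms were chosen after values had been seen.

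IFIT1 averaged 38.7 FPKM in knockdown and 75.4 FPKM in control libraries by the tables of single libraries, while the authors' deposited table gave 17.8 FPKM for knockdown and 32.7 FPKM for control; the log2 fold change in the authors' deposited table was -0.88. Among the 3 control libraries, replicate 2 held the lowest value in 26 of the 43 members and the highest in 7. The same count over all genes was not made, so it cannot be read as particular to the members. Outside the members, 329 tested genes had the ISRE core in a promoter, with a median log2 change of -0.14, beside -0.07 for all tested genes with a promoter in the table.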
